A study of Mus musculus with 16 samples.

Results

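The DNA replication and nucleotide synthesis genes comprised 39 genes, chosen by symbol for their known roles, with earlier results of these data known. All 39 were found among the 23479 genes of the count table. They fell into 7 role groups: 6 subunits of the MCM helicase, 10 genes of origin licensing and helicase activation, 8 polymerase and primase subunits, 6 genes of the sliding clamp, its loader and single-strand binding, 2 of Okazaki fragment maturation, 5 of deoxynucleotide supply and 2 of chromatin assembly factor 1. RNA was sequenced from CD4 T cells that had been enriched from C57BL/6 mouse spleens by immunomagnetic negative selection, which removes other cells with antibody-coated beads. The control group held 5 libraries from mice without tumour, and 7 and 4 libraries came from mice taken 7 and 14 days after a transplant of Eµ-Myc lymphoma cells. Eµ-Myc is a transgene in which an immunoglobulin heavy chain enhancer drives the Myc oncogene in B lineage cells, so the lymphoma cells were B cells and the sequenced T cells came from the recipients. The labels give no age or sex of the mice and name no sham transplant, so transplant itself and tumour growth cannot be told apart.

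A cell copies its genome once per division. In G1, the origin recognition complex with Cdc6 and Cdt1 loads the ring of MCM subunits onto DNA, and Mcm10, Cdc45 and the GINS complex turn that ring into an active helicase in S phase. Polymerase alpha with primase starts each strand, polymerases epsilon and delta extend it on the clamp Pcna, and Fen1 and Lig1 join the pieces of the lagging strand. Ribonucleotide reductase, thymidylate synthase, thymidine kinase and dUTPase supply and clean the deoxynucleotides, and chromatin assembly factor 1 packs the new DNA. Most of these genes are transcribed under E2F control late in G1, and resting T cells hold little of many of their transcripts until they are activated.

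The promoters are shown because a shared regulatory sequence is the textbook feature of the family. Promoter windows from RefSeq (build GRCm38.p6, from 250 bases before to 50 bases after the annotated start) were matched by symbol for 32 of the 39 genes, and Gins1, Gins2, Gins4, Mcm4, Pole, Prim2 and Rfc2 were not matched. The searched E2F letters were TTTCCCGC, TTTCGCGC, TTTGCCGC and TTTGGCGC on both strands, and overlapping matches were all counted. They occurred in 13 of the 32 genes (40.6%), against 704 of 27025 genes in the whole promoter table (2.61%). The 13 were Mcm3, Mcm5, Mcm6, Mcm7, Orc1, Cdc6, Cdt1, Gins3, Pola1, Pold1, Pole2, Rfc3 and Lig1. CCAAT, a binding site of NF-Y, occurred in 19 of 32 (59.4%) against 41.1% of all genes. TTTGAA, the letters of the CHR element of G2/M genes, occurred in 5 of 32 (15.6%) against 20.2%. A match in these windows is a description of the letters and not a measured binding site. The 160 bases before the RefSeq start of 6 genes are printed 5′ to 3′ on the gene's strand, with E2F matches in capitals, and runs longer than 8 capitals are overlapping matches on opposite strands. Rfc3 also holds a match within its 160 bases and is not printed. Mcm5 lies at chr8:75109349-75109508 (+), Mcm6 at chr1:128359706-128359865 (-), Orc1 at chr4:108579294-108579453 (+), Cdc6 at chr11:98907991-98908150 (+), Gins3 at chr8:95633399-95633558 (+) and Pola1 at chrX:93632156-93632315 (-). The starts differ between RefSeq and the GENCODE annotation behind the gene positions given with the values: the Cdc6 stretch lies inside the GENCODE gene, and the Orc1 and Gins3 stretches run past its start. The Mcm5 and Mcm6 stretches end short of the GENCODE start, and only the Pola1 stretch ends directly before it.
Mcm5: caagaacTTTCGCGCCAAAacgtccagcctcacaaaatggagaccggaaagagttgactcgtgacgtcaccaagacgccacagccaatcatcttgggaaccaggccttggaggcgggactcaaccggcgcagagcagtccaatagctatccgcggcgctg
Mcm6: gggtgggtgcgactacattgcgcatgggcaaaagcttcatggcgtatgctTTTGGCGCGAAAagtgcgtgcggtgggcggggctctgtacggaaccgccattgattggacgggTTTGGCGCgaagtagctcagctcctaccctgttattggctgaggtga
Orc1: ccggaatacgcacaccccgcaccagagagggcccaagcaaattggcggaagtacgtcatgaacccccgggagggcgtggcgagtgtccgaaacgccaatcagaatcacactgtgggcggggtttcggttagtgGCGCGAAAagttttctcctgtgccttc
Cdc6: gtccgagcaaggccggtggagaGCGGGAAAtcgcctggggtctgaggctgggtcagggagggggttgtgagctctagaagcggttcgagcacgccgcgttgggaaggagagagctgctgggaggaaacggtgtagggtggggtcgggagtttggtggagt
Gins3: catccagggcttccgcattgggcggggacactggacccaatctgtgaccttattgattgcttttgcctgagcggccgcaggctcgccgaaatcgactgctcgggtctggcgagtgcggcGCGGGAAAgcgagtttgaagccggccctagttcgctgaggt
Pola1: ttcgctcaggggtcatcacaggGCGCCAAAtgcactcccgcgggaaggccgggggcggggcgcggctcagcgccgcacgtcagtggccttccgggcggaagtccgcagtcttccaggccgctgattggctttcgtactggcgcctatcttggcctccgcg
All 6 windows carry the letters, but the genes varied to different degrees between libraries: the highest of the 16 library values was 6.46 times the lowest for Mcm5, 3.93 for Mcm6, 18.97 for Orc1, 14.9 for Cdc6, 2.12 for Gins3 and 6.45 for Pola1.

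Several libraries stood apart before any comparison was made. Gene counts per library ran from 14493764 to 27340070, and intervals on such counts would cover counting error only. Transcripts of 4 Y-linked genes reached 356 to 437 CPM in 5 libraries, and at most 3.32 CPM in the other 11. The 5 were 2 of the controls (libraries 1 and 2), 2 taken on day 7 (libraries 6 and 7) and 1 taken on day 14 (library 4). Day 14 library 1 held neither Y-linked reads nor many reads of Xist, the transcript of the inactive X chromosome (162 reads). Cd4 itself was at 781 to 1802 CPM in every library, against 5.44 to 16.5 CPM of Cd8b1, the beta chain of the CD8 coreceptor, so the labelled cell type was present throughout. The lowest Cd4 value belonged to control library 2. In bulk samples of this kind, fewer cells of a type and less RNA per cell cannot be told apart.

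Control libraries 1 and 2 carried the highest summed levels of the replication genes. The 39 genes added up to 2256 and 3790 CPM there, against 1370, 1230 and 1098 CPM in control libraries 3, 4 and 5. At day 7 the sum ranged from 971 to 1365 CPM with the highest values in libraries 6 and 7 (1254 and 1365 CPM). At day 14 it was 973, 1712, 1221 and 1937 CPM in libraries 1 to 4. Markers of several other blood cell types, but not of all, were high in the same 2 control libraries. All 13 neutrophil and neutrophil precursor markers were higher in control libraries 1 and 2 than in libraries 3 to 5. Their sum ranged from 19.7 to 2582 CPM in controls, from 1.32 to 39.2 CPM at day 7 and from 21.2 to 1741 CPM at day 14, with the day 14 maximum in library 4. Day 14 library 2, with a replication sum of 1712 CPM, had a neutrophil marker sum of 61.4 CPM and the highest erythroid marker sum of day 14 (440 CPM). The neutrophil granule gene Mpo reached 376 and 646 CPM in control libraries 1 and 2 and 1226 CPM in day 14 library 4, and 0.172 to 36.1 CPM in the other 13. The 12 erythroid markers summed to 57.3 to 1644 CPM in controls, 6.82 to 296 CPM at day 7 and 25.0 to 440 CPM at day 14. In control libraries 1 and 2, 8 of the 12 were higher than in libraries 3 to 5, and the 4 globin genes Hba-a1, Hba-a2, Hbb-bs and Hbb-bt were at 0 in every library. The erythroid carbonic anhydrase Car1 was at 0.0439 to 2.24 CPM in day 7 libraries 1 to 5 and at 95.4 and 120 CPM in libraries 6 and 7. The summed levels of 8 macrophage and monocyte markers (29.7 to 963 CPM in controls, 22.3 to 70.5 at day 7, 42.4 to 381 at day 14) and 5 stem and progenitor markers (23.9 to 145, 2.01 to 41.2 and 10.8 to 195 CPM) peaked in control library 2 or day 14 library 4 as well. The 4 plasma cell markers summed to 656 and 591 CPM in control libraries 1 and 2 and 117 to 360 CPM in libraries 3 to 5, with 2 of 4 markers higher in libraries 1 and 2. Their sum was 96.5 to 116 CPM in day 7 libraries 1 to 5 and 207 and 229 CPM in libraries 6 and 7. It was 73.0 to 232 CPM at day 14. Igj, the immunoglobulin joining chain, was at 0.401 to 15.2 CPM in day 7 libraries 1 to 5 and at 137 and 154 CPM in libraries 6 and 7. The 8 B cell markers summed to 14.5 to 76.8 CPM over all libraries. Of these 8, 2 were higher in control libraries 1 and 2 than in libraries 3 to 5. The 5 natural killer cell markers summed to 42.6 and 24.9 CPM in control libraries 1 and 2 and 29.5 to 38.1 CPM in libraries 3 to 5. Of these 5, 0 were higher in libraries 1 and 2, and 2 were at 0 in every library. The part of these cells in the replication gene levels was not tested.

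**Figure D1:**
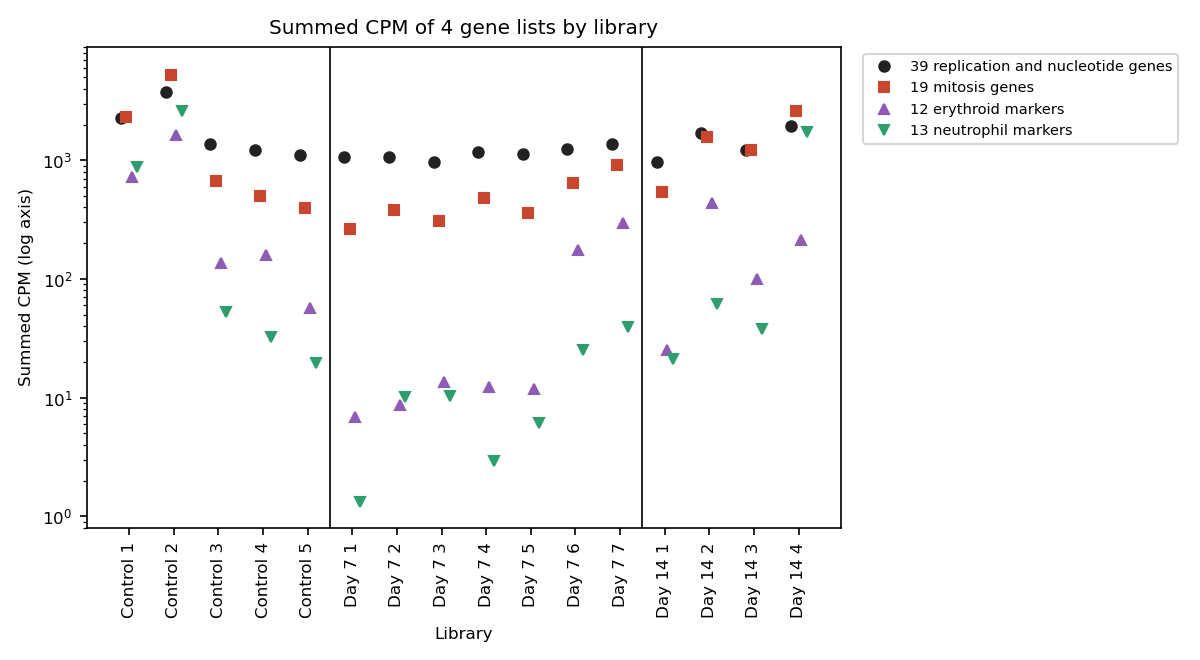
Summed CPM (log axis) of the 39 replication and nucleotide genes, 19 mitosis genes, 12 erythroid markers and 13 neutrophil markers in each of the 16 libraries (1 symbol per library, no error bar). Control libraries 1 and 2 hold the highest replication sums (2256 and 3790 CPM), and the marker lists are high in the same libraries, in day 14 library 4 for neutrophil markers and in day 14 library 2 for erythroid markers.

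Across all 16 libraries, none of the 39 genes passed the test in any comparison (edgeR's quasi-likelihood test, Benjamini-Hochberg adjusted p under 0.05 over 18430 genes). At day 7 against control, 38 of 39 log2 changes were negative with a median of -0.86, against 0.07 over all genes tested, and 0.0109% of all genes were called. The lowest adjusted p was 0.0777, and 33 of the 39 had an unadjusted p under 0.05 toward lower values, as had 2337 of the 18430 genes. Against control at day 14, 35 of 39 were negative (34 under RLE scaling and 29 under library totals alone). The median was -0.40 (all genes 0.12), and 3.13% of all genes were called. An unadjusted p under 0.05 toward lower values was found for 3 of the 39 and for 2181 of the 18430 genes. At day 14 against day 7, 36 of 39 were positive with a median of 0.47 (all genes 0.12), and 0.966% of all genes were called. The day 7 and day 14 comparisons with control share the same control libraries, so they are not independent of each other. By DESeq2, 19 of the 39 genes were lower at day 7 than in controls, where 5.99% of all genes were called lower, and without control library 5 edgeR called 25 lower (5.58% of all genes). DESeq2 called none of the 39 at day 14 against control (8.42% of all genes). Between day 14 and day 7, DESeq2 called Pola2 and Pole2 higher (1.89% of all genes), edgeR on these 2 groups alone called Mcm10, Pola2, Pole and Pole2 (1.86%), and edgeR without control library 2 called 2 (1.17%).

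Both comparisons with control depended on control libraries 1 and 2. Without control libraries 1 and 2, the median at day 7 against control went from -0.86 to -0.11. There, 27 genes were negative, 12 positive and none called, where 0% of all genes were called. By the same fit, the median at day 14 against control turned from -0.40 to 0.30, close to that of all genes (0.31), with 31 positive. There, 2 of the 39 genes were called higher, Cdc6 and Pole, where 2.38% of all genes were called higher. Between day 14 and day 7 the median stayed at 0.47 (all genes 0.14), and 6 of 39 genes were called higher, Mcm10, Pola2, Pole, Pole2, Tyms and Tk1, where 2.03% of all genes were. These 6 calls did not remain when day 14 library 4 was left out as well, a setting chosen after seeing the data: 0 of 39 were called, the median was 0.30, 33 were positive and 0.445% of all genes were called higher. The log2 changes of the 6 genes were then 1.06 for Mcm10, 0.39 for Pola2, 0.90 for Pole, 0.58 for Pole2, 0.78 for Tyms and 1.16 for Tk1, with adjusted p from 0.111 (Pola2) to 0.314 (Tk1). No member was called against control in that setting either (0% of all genes at day 7, 0.937% higher at day 14).

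**Figure D2:**
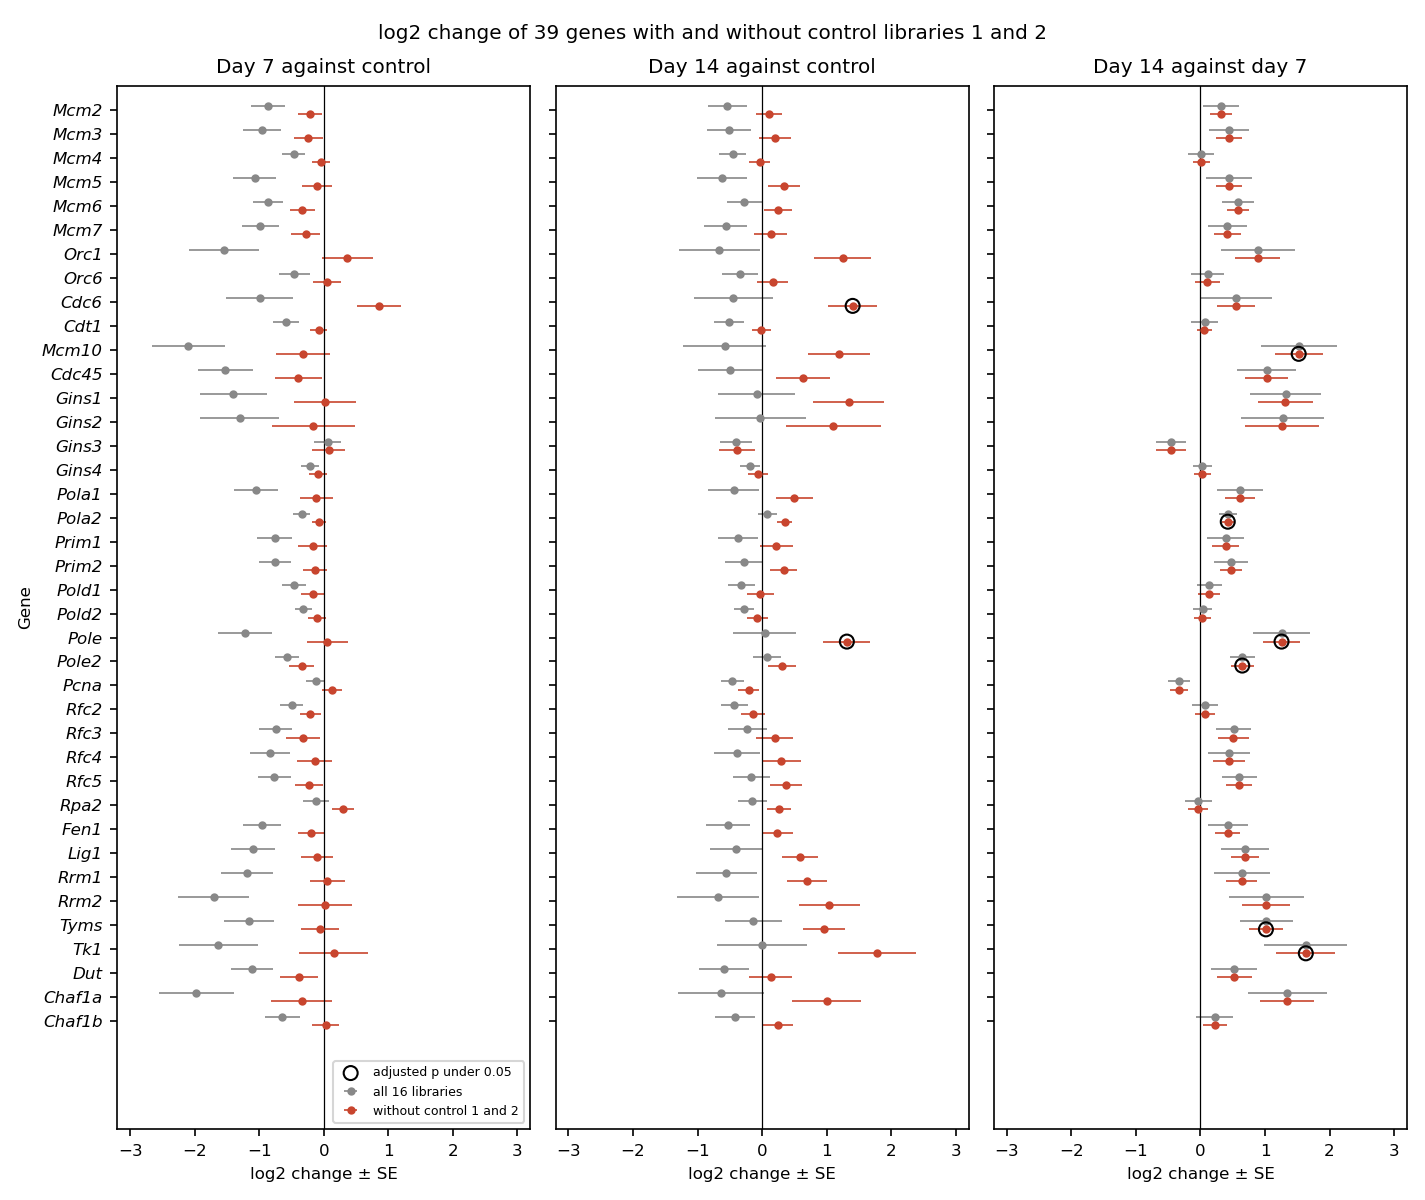
Log2 change ± SE of each of the 39 genes in the 3 comparisons, with all 16 libraries (grey) and without control libraries 1 and 2 (red), with circles around adjusted p under 0.05. The grey points lie left of 0 for 38 genes at day 7 against control and 35 at day 14 against control, the red ones for 27 and 8, and the day 14 against day 7 estimates hardly differ between the 2 fits apart from their errors.

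The MCM subunits form the ring that unwinds DNA, and cells keep them in excess of need. Mcm4 (chr16:15623897-15637400) was at 211, 304, 168, 134 and 116 CPM in control libraries 1 to 5, at 121 to 148 CPM (median 136) in the 7 day 7 libraries and at 106, 182, 113 and 143 CPM at day 14. All 3 groups overlapped, and outside control libraries 1 and 2 the values ran from 106 to 182 CPM, with both ends at day 14. Its log2 change was -0.47 ± 0.18 (SE) at day 7 against control (edgeR adjusted p = 0.15) and -0.05 ± 0.14 without control libraries 1 and 2 (adjusted p = 0.914). Mcm6, whose promoter holds 3 matches in the printed stretch, was at 145, 229, 93.7, 89.3 and 84.2 CPM in controls, 58.2 to 84.3 CPM (median 71.9) at day 7 and 63.2, 115, 84.8 and 160.5 CPM at day 14. Day 14 libraries 2, 3 and 4 were above every day 7 library and library 1 was among them. The change at day 14 against day 7 without control libraries 1 and 2 was 0.58 ± 0.18 (adjusted p = 0.0679). The other 4 subunits, Mcm2, Mcm3, Mcm5 and Mcm7, had day 7 against control changes from -0.86 (Mcm2) to -1.07 (Mcm5) in the fit of all libraries and from -0.11 (Mcm5) to -0.28 (Mcm7) without the 2 controls. Per kilobase of exon, the day 7 median level was 37.8 CPM for Mcm4 and 8.69 to 15.6 CPM for the others.

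Among the genes of origin licensing and helicase activation, Mcm10, a scaffold that helps fire the loaded helicase (chr2:4989714-5012791), was at 17.1, 55.6, 4.82, 5.87 and 4.81 CPM in controls 1 to 5, at 1.78 to 7.98 CPM (median 3.07) at day 7 and at 6.33, 12.3, 7.53 and 21.2 CPM at day 14. Day 14 libraries 2 and 4 and control libraries 1 and 2 were the high ones, and day 14 overlapped day 7 only through day 7 libraries 6 and 7. The change at day 14 against day 7 was 1.52 ± 0.59 with all libraries (adjusted p = 0.225) and 1.52 ± 0.37 without control libraries 1 and 2 (adjusted p = 0.0254). Against control, day 7 stood at -2.10 ± 0.56 (adjusted p = 0.0777), and at -0.33 ± 0.42 without control libraries 1 and 2 (adjusted p = 0.76).

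Cdc6, the loader of the MCM ring (chr11:98907801-98923940), was at 18.1, 54.4, 6.46, 4.36 and 3.65 CPM in controls, 5.44 to 14.9 CPM (median 7.80) at day 7 and 5.87, 16.3, 11.3 and 17.7 CPM at day 14. Control library 2 was the highest of the 16 and control libraries 4 and 5 were the lowest. Its change at day 14 against control was -0.45 ± 0.61 with all libraries (adjusted p = 0.661) and 1.40 ± 0.38 without control libraries 1 and 2 (adjusted p = 0.0426), a sign that turned with those 2 libraries. Without day 14 library 4 as well it was 1.18 (adjusted p = 0.0917). Cdt1, its partner in loading, was at 56.4, 91.6, 43.8, 33.2 and 31.1 CPM in controls, 29.9 to 38.7 CPM (median 33.1) at day 7 and 39.004, 36.9, 29.4 and 37.6 CPM at day 14. Its values outside controls 1 and 2 overlapped fully, and the change at day 14 against day 7 was 0.06 ± 0.22 (adjusted p = 0.904). Orc1, the largest subunit of the origin recognition complex, was at 10.3, 26.9, 4.02, 1.55 and 1.42 CPM in controls, 1.66 to 4.13 CPM (median 2.70) at day 7 and 4.60, 5.10, 4.21 and 8.41 CPM at day 14. Every day 14 value of Orc1 lay above every day 7 value, an order shared by Pola2 alone among the 39 and by 1.77% of all genes, but its change of 0.89 ± 0.34 without control libraries 1 and 2 had an adjusted p of 0.168.

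The 4 GINS subunits form 1 complex, yet their transcripts did not vary alike. Gins1 and Gins2 were the low and variable ones: control library 2 held 14.6 and 12.8 CPM, the day 7 libraries 0.699 to 4.74 and 0.0666 to 3.54 CPM, and day 14 library 4 10.2 and 9.31 CPM. The lowest of the Gins2 values, in day 7 library 3, rests on 1 read. Gins4 was at 19.7, 29.3, 17.5, 17.7 and 24.7 CPM in controls, 17.4 to 21.3 CPM at day 7 and 17.4 to 20.6 CPM at day 14, and its highest value was 1.69 times its lowest, the narrowest range of the 39. Gins3 was at 5.17, 8.54, 4.46, 7.42 and 8.29 CPM in controls, 5.44 to 8.57 CPM (median 6.89) at day 7 and 5.12, 5.28, 4.05 and 6.11 CPM at day 14, and was the 1 member not highest in control library 2. Its change at day 7 against control was 0.06 ± 0.21 (adjusted p = 0.907) and at day 14 against day 7 -0.46 ± 0.23 (adjusted p = 0.374). Of the exon bases of Gins2, 67.3% overlap the gene Gse1 on the other strand, and since the strand setting of the counting is not given in the sources used here, its counts cannot be assigned with certainty.

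Among the polymerase and primase genes, the 3 calls at day 14 against day 7 without control libraries 1 and 2 were Pole, Pole2 and Pola2. Pole, the catalytic subunit of leading strand polymerase epsilon (chr5:110286306-110337474), was at 72.8, 103, 18.1, 20.1 and 19.8 CPM in controls, 13.2 to 35.1 CPM (median 14.6) at day 7 and 25.6, 53.3, 34.9 and 78.2 CPM at day 14. All 4 day 14 values lay above control libraries 3 to 5, an order that 5 of the 39 genes (Orc1, Mcm10, Gins1, Pola2 and Pole) and 15.2% of all genes showed. Without control libraries 1 and 2, Pole was higher at day 14 than at day 7 by 1.26 ± 0.28 (adjusted p = 0.017) and than in control by 1.31 ± 0.37 (adjusted p = 0.0455). With all 16 libraries the same changes were 1.26 ± 0.44 (adjusted p = 0.178) and 0.04 ± 0.48 (adjusted p = 0.963). Pole2, its second subunit, was at 14.9, 22.9, 15.4, 12.7 and 11.2 CPM in controls, 8.13 to 13.8 CPM (median 10.4) at day 7 and 15.8, 18.3, 12.4 and 18.4 CPM at day 14. Control library 1 lay within the range of the other controls here, unlike for Pole. At day 14 against day 7 the change was 0.65 ± 0.20 with all libraries (adjusted p = 0.119, the lowest of the 39 there) and 0.65 ± 0.18 without control libraries 1 and 2 (adjusted p = 0.0424).

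Pola2, the regulatory subunit of the polymerase that starts each strand (chr19:5940542-5964202), was at 45.9, 62.4, 35.8, 40.2 and 31.3 CPM in controls, 32.0 to 36.8 CPM (median 33.5) at day 7 and 47.2, 43.7, 43.4 and 48.4 CPM at day 14. The 4 day 14 values were close together and above all 7 day 7 values, including library 1, which was the lowest day 14 library for 29 of the 39 genes (28.1% of all genes) but not for this one. The rise over day 7 was small, 0.42 ± 0.10 on the log2 scale (adjusted p = 0.0171) without control libraries 1 and 2, and 0.43 ± 0.14 (adjusted p = 0.146) with them. Pola1, the catalytic subunit (chrX:93304767-93632155), was at 87.2, 142, 36.1, 39.4 and 29.3 CPM in controls, 26.3 to 47.5 CPM (median 28.0) at day 7 and 22.03, 55.1, 43.7 and 76.6 CPM at day 14. Here day 14 library 1 was the lowest of the 16 libraries, and the change over day 7 was 0.61 ± 0.23 (adjusted p = 0.154) without control libraries 1 and 2. Pold1 and Pold2, of lagging strand polymerase delta, had day 14 against day 7 changes of 0.14 ± 0.17 and 0.03 ± 0.13 in that fit, and the primase subunits Prim1 and Prim2 0.39 ± 0.21 and 0.47 ± 0.17, none called.

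The clamp was the most abundant member and kept its own order. Pcna (chr2:132249162-132253314) had a day 7 median of 67.8 CPM per kilobase of exon, the highest of the 39, and was at 204, 228, 179.6, 135 and 123 CPM in controls, 126 to 184 CPM (median 163) at day 7 and 109, 162, 132 and 103 CPM at day 14. Day 7 libraries 6 and 7 were the lowest of their group for Pcna and Rfc3 alone (14.9% of all genes), while for 19 of the 39 genes they were the highest (9.94% of all genes). Pcna's change was -0.46 ± 0.18 at day 14 against control (adjusted p = 0.137, the lowest of the 39 there) and -0.33 ± 0.14 at day 14 against day 7 without control libraries 1 and 2 (adjusted p = 0.199). The clamp loader subunits Rfc2, Rfc3, Rfc4 and Rfc5 had changes of 0.07 to 0.60 in the latter comparison, and Rpa2, a subunit of the single-strand binding protein, -0.03 ± 0.15, with none called. For Rfc2, Rfc4 and Rfc5, 10.7% to 15.1% of exon bases overlap another gene.

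The 2 genes of Okazaki fragment maturation had no call. Lig1, the ligase that seals the lagging strand, was at 86.3, 152, 40.3, 31.2 and 31.5 CPM in controls, 22.1 to 45.4 CPM (median 30.0) at day 7 and 26.9, 59.8, 46.2 and 73.5 CPM at day 14. Libraries 2 to 4 of day 14 were above every day 7 value of Lig1, and library 1 was not. For 9 of the 39 genes (Mcm6, Orc1, Gins2, Pola2, Prim2, Rfc3, Lig1, Tyms and Tk1) and 3.56% of all genes these 3 libraries lay above every day 7 value, wherever library 1 lay, and for Orc1 and Pola2 library 1 did as well. Its change over day 7 was 0.69 ± 0.22 (adjusted p = 0.0845) without control libraries 1 and 2. Fen1, the flap nuclease, had 0.42 ± 0.19 (adjusted p = 0.253), and 84.2% of its exon bases overlap Gm10143 or Tmem258 on the other strand.

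Tyms, thymidylate synthase (chr5:30058202-30073617), was at 27.7, 55.7, 10.7, 11.7 and 10.2 CPM in controls, 6.99 to 16.6 CPM (median 8.52) at day 7 and 10.6, 25.9, 18.1 and 29.9 CPM at day 14. Tk1, the salvage thymidine kinase (chr11:117815526-117826092), was at 10.8, 31.5, 2.71, 4.46 and 1.76 CPM in controls, 1.15 to 6.91 CPM (median 2.28) at day 7 and 4.03, 9.41, 9.14 and 18.4 CPM at day 14. For both, library 1 was the lowest within day 14, and libraries 1 and 5 were the lowest within day 7. Control library 2 was the highest of the 16 for both. Without control libraries 1 and 2, Tyms was higher at day 14 than at day 7 by 1.01 ± 0.26 (adjusted p = 0.0329) and Tk1 by 1.63 ± 0.46 (adjusted p = 0.0495). With all 16 libraries the adjusted p values were 0.243 and 0.232. These were the 2 calls among the 5 deoxynucleotide supply genes.

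The reductase genes had no call. Rrm1, the large subunit of ribonucleotide reductase (chr7:102441695-102469771), was at 138, 284, 60.2, 46.2 and 36.1 CPM in controls, 30.7 to 67.3 CPM (median 47.8) at day 7 and 37.9, 99.9, 59.0 and 111 CPM at day 14, so the groups overlapped. Its change was -1.20 ± 0.40 at day 7 against control (adjusted p = 0.101), 0.05 ± 0.27 without control libraries 1 and 2 (adjusted p = 0.946) and 0.64 ± 0.24 at day 14 against day 7 in that fit (adjusted p = 0.157). Rrm2, the small subunit made in S phase, spread further, with 45.1 and 120 CPM in control libraries 1 and 2, 9.58 to 15.1 CPM in libraries 3 to 5, 6.06 to 22.6 CPM (median 9.92) at day 7 and 8.63, 29.3, 15.1 and 47.3 CPM at day 14. Dut, which removes dUTP, had 0.52 ± 0.27 at day 14 against day 7 (adjusted p = 0.333).

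Chaf1a, the large subunit of chromatin assembly factor 1 (chr17:56040439-56072289), was at 42.0, 133, 13.4, 16.3 and 12.2 CPM in controls, 4.86 to 27.6 CPM (median 6.94) at day 7 and 11.3, 31.9, 18.9 and 49.8 CPM at day 14. Within day 7, libraries 6 and 7 (17.2 and 27.6 CPM) stood above the other 5 (at most 8.46 CPM). The change at day 7 against control was -1.98 ± 0.58 with all libraries (adjusted p = 0.0816) and -0.34 ± 0.47 without control libraries 1 and 2 (adjusted p = 0.782). Over day 7, the day 14 change was 1.34 ± 0.42 in the latter fit (adjusted p = 0.0812). Chaf1b had 0.22 ± 0.19 there. Ubxn6, on the other strand, overlaps 52.5% of the exon bases of Chaf1a, so these counts cannot be assigned with certainty.

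**Figure D3:**
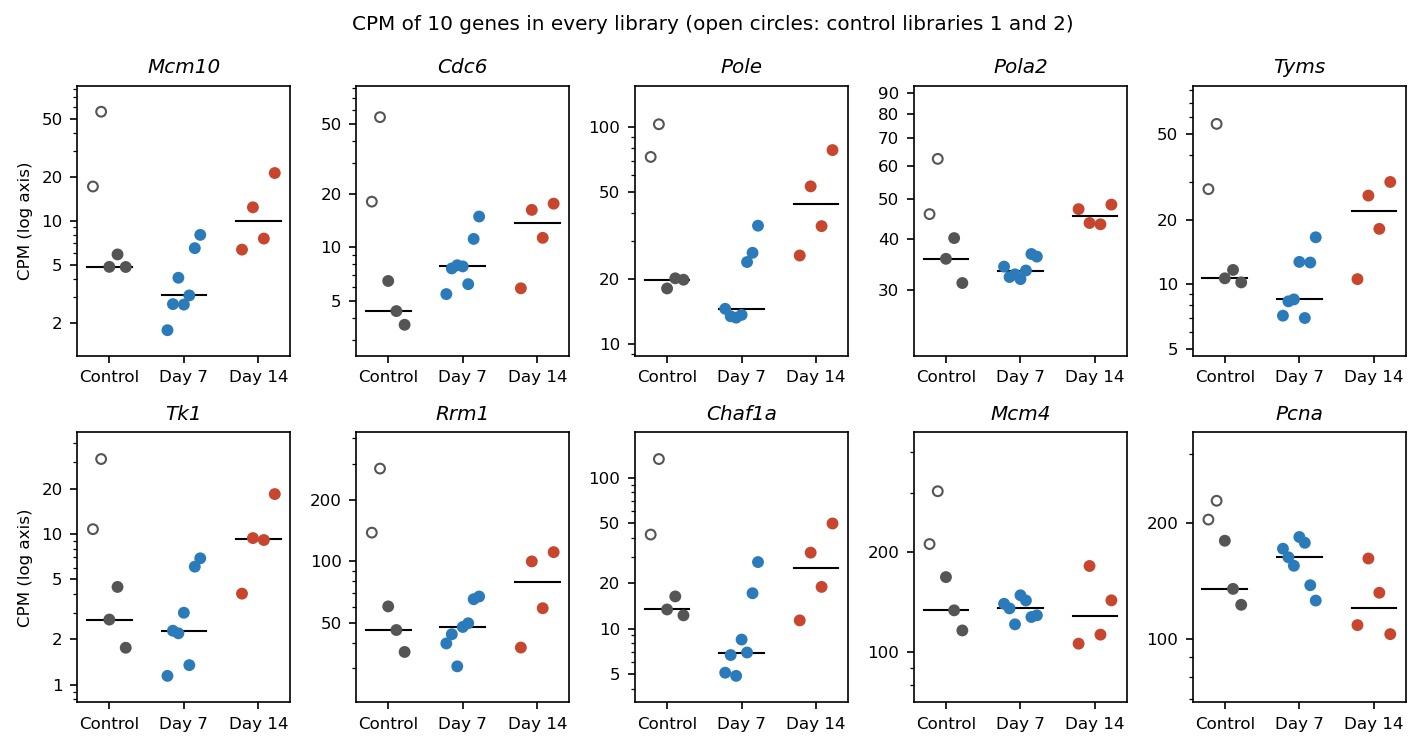
CPM (log axis, each panel with its own scale) of 10 members in every library, 1 point per library, with control libraries 1 and 2 as open circles and a line at the group median (controls 3 to 5 in the control group). For Mcm10, Pole, Tyms, Tk1 and Chaf1a the open circles and the day 14 points lie high, while Mcm4 and Pcna hold 1 band apart from the open circles, and only for Pola2 do all day 14 points lie above all day 7 points.

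The day 14 against day 7 comparison was repeated in the 11 libraries with under 10 CPM of Y-linked transcripts (controls 3 to 5, day 7 libraries 1 to 5, day 14 libraries 1 to 3), a choice made after seeing the data. There, 5 of the 39 genes were higher at day 14 (1.59% of all genes): Pole by 1.27 ± 0.22 (edgeR adjusted p = 0.00356), Chaf1a by 1.69 ± 0.26 (adjusted p = 0.00176), Mcm10 by 1.62 ± 0.30 (adjusted p = 0.0061), Tk1 by 1.92 ± 0.41 (adjusted p = 0.0131) and Tyms by 1.06 ± 0.25 (adjusted p = 0.0231). In the same libraries Chaf1a was lower at day 7 than in control by 1.16 ± 0.26 on the log2 scale (adjusted p = 0.0457, with 0.537% of all genes lower), and Pole was higher at day 14 than in control by 0.94 ± 0.25 (adjusted p = 0.0456, with 1.65% of all genes higher). The choice drops day 7 libraries 6 and 7, the highest of their group for 19 of the 39 (9.94% of all genes). Mcm10, Pole, Tk1 and Chaf1a are among those 19. Day 14 library 4, the highest of its group for 31 (24.9%), is dropped as well. The choice itself thus changes the level and spread of these groups, so its calls are not a separate test. The neutrophil marker sum of the 11 libraries was 19.7 to 52.6 CPM in controls, 1.32 to 10.4 CPM at day 7 and 21.2 to 61.4 CPM at day 14. Their erythroid sum was 57.3 to 159 CPM in controls, 6.82 to 13.4 CPM at day 7 and 25.0 to 440 CPM at day 14. Both sums were lowest at day 7 with no overlap. With the Y-linked level as a covariate over all 16 libraries, 7 members were higher at day 14 than at day 7, the earlier 6 and Chaf1a (2.83% of all genes), and Mcm10 and Chaf1a were lower at day 7 than in control (1.36%). The part of the red cell and neutrophil lineages in the control and day 14 values was not tested.

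Library by library, the 39 genes behaved largely as 1 block with different amplitudes. In control library 2, 38 of 39 genes had their highest value of the 16 libraries (19.6% of all genes), and control libraries 1 and 2 both lay above controls 3 to 5 for 36 (24.1% of all genes), the exceptions being Gins3, Gins4 and Pole2. At day 14, library 4 was the highest for 31 genes (24.9% of all genes). The ratio of control library 2 to the median of controls 3 to 5 ran from 1.15 for Gins3 and 1.42 for Pold2 to 12.5 for Cdc6 and 17.3 for Orc1. Genes with a low level per kilobase at day 7 tended to have the larger ratio (Spearman rho = -0.583 across the 39 genes, which share their libraries and are not independent, so no p is given). The ratio is divided by the level in controls 3 to 5, which was low for many of the same genes. Part of rho can therefore come from that division. The counts of low genes also carry more sampling error. Full separation from the controls was rare among all genes, so a count of 0 in 39 says little about the members. Of the 39, 0 had all day 7 values below all controls (0.982% of all genes) and 0 below controls 3 to 5 (2.01%). All day 14 values lay below all controls for 0 (2.85%) and above them for 0 (5.24%). With control library 2 highest for 38 of 39, hardly any member could lie above all controls. For 5 of the 39, all day 14 values lay above controls 3 to 5 (15.2% of all genes).

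**Figure D4:**
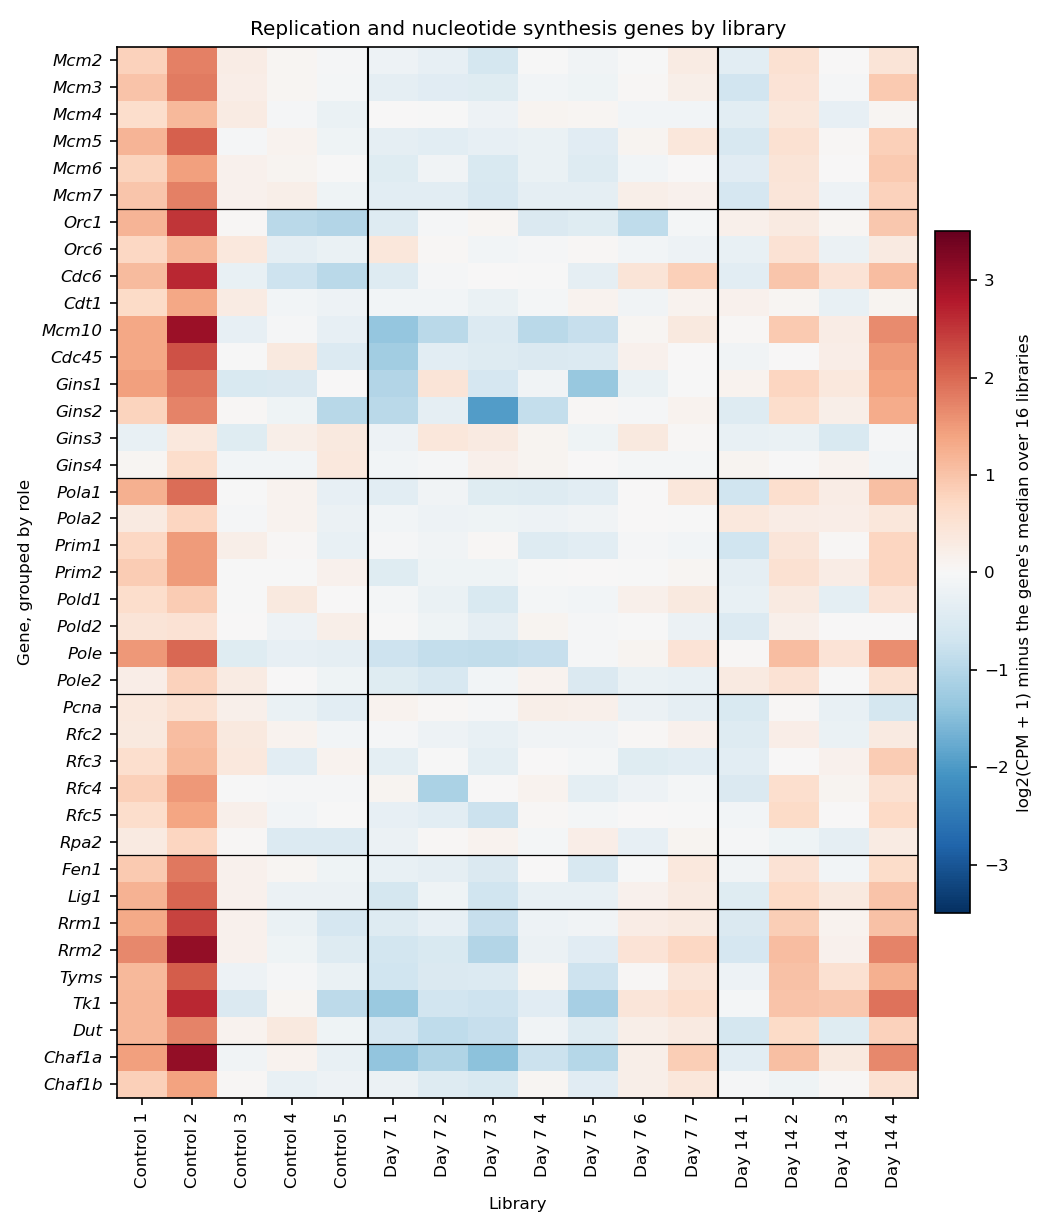
Log2(CPM + 1) of each of the 39 genes (rows, grouped by role) in each of the 16 libraries (columns), minus the gene's median over the libraries, with red above and blue below. The columns of control libraries 1 and 2 are red for nearly all genes, day 7 libraries 1 to 5 are pale to blue, and the rows of Gins3, Gins4, Pcna and Pola2 are pale throughout.

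Other genes of the same pathways had few calls of their own. With all 16 libraries, 1 of 30 other replication genes was called: Rpa1, the large subunit of the single-strand binding protein, fell from 138 ± 13.8 (SD, n = 5) to 97.0 ± 12.96 CPM (n = 4) at day 14 against control, by 0.51 ± 0.11 on the log2 scale (adjusted p = 0.0273). Of 16 other deoxynucleotide genes, Cmpk1, a kinase of CMP and UMP, fell from 93.3 ± 13.6 to 54.7 ± 10.9 CPM in that comparison (log2 change -0.77 ± 0.14, adjusted p = 0.0107). None of 18 genes of de novo purine and pyrimidine synthesis was called in any comparison, with or without control libraries 1 and 2. Without those libraries, Clspn and Ticrr, which act in checkpoint signalling and origin firing, were higher at day 14 than at day 7 by 1.46 ± 0.31 and 1.59 ± 0.32 (adjusted p = 0.0124 and 0.00882), while Rpa1 was lower by 0.40 ± 0.11 on the log2 scale (adjusted p = 0.0472). In the same comparison, where 2.03% of all genes were higher, 3 of 19 E2F and G1/S genes were higher, the repressor E2Fs E2f7 (log2 change 1.20) and E2f8 (1.96) and the G1 kinase Cdk6 (1.65). Of 10 S phase chromatin genes, Uhrf1 (1.36) and Hells (0.90) were higher, and of 16 deoxynucleotide genes Shmt2 was higher (0.59) and the mitochondrial kinase Tk2 lower (-0.53). With all 16 libraries no gene of these 4 lists was called between day 14 and day 7. At day 14 against control without the same 2 libraries, Clspn (1.68) and E2f7 (1.95) were higher (2.38% of all genes) and Rpa1 (-0.56) and Cmpk1 (-0.68) lower. Of 19 mitosis genes, 17 were higher at day 14 than at day 7 without those 2 libraries (2.03% of all genes), with a median log2 change of 1.49, against 0.47 for the 39 replication genes. With all 16 libraries none of the 19 was called in that comparison, at the same median of 1.49. Clspn, Ticrr, E2f7, E2f8, Cdk6, Uhrf1, Hells and the called mitosis genes were highest at day 14 in library 4 (24.9% of all genes), Shmt2 in library 2. In day 14 libraries 1 to 4, E2f8 was at 9.89, 43.5, 26.6 and 113 CPM and Cdk6 at 27.8, 41.7, 31.6 and 132 CPM. Calls of these lists without day 14 library 4 are not given here. Mki67, the proliferation marker, was at 126 to 495 CPM at day 7 and at 266, 915, 759 and 1461 CPM at day 14, against 357, 263 and 190 CPM in control libraries 3 to 5 and 1380 and 3252 CPM in libraries 1 and 2.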

How the data were processed

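The file used held read counts for each gene, raw whole numbers as the authors deposited them, in 16 libraries (23479 genes). Per the labels' protocols, a Macherey-Nagel kit gave the RNA, and 100 ng of it entered a NuGEN mouse library kit. The submitters' processing notes name HTSeq 0.6.1, cutadapt 1.8.1, bcl2fastq 2.20.0.422 and build mm10. Neither the aligner nor the strand setting is given in the sources used here. Totals left out 5 lines that name no gene: reads without a gene model were 47.1% to 69.8% of all reads and multiply placed ones 6.67% to 10.1%. Groups came from the labels, and each library was taken as 1 mouse.

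The test was edgeR 4.0.16 in R 4.3.3, with TMM scaling, filterByExpr by group (18430 genes kept, 5049 removed), 1 quasi-likelihood model of the 3 groups and Benjamini-Hochberg adjustment at 0.05. Leaving out control libraries 1 and 2 gave 19144 tested genes. CPM are TMM-scaled. The SE is the log2 change, without its sign, over the root of F. The biological coefficient of variation was 54.5%. The script was tested on simulated data, with counts drawn separately for each gene. That test does not cover shifts shared by many genes of 1 library. Positions and exon lengths are GENCODE's for GRCm38 (mm10), and promoters RefSeq's. Tables and figures were made with Python 3.11.15, pandas 2.3.3, NumPy 2.4.6 and Matplotlib 3.10.9.

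The members and lists were chosen with earlier results of these data known. By rule, values are given for the called members and the most abundant member of each role group. Called members were at most 3 per role group in the fit without control libraries 1 and 2. Control and day 14 values are given library by library, and day 7 values as a range with a median. Mcm6, Orc1, the GINS genes and Rrm2 were added after their values were seen. Alternatives were other scalings and filters, DESeq2 1.42.0, limma-voom (limma 3.58.1), fits of 2 groups, left-out libraries, a replicate block and a Y-linked covariate.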

Additional observations from a re-analysis of the deposited data

Results flagged for a closer look

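In 3 cases of 42 checked (the 14 members named by rule in each of 3 groups), 1 library lay far from the rest of its group, and chance alone flags about 1 group in 20. All 3 were control library 2 among the controls. For Cdc6 it stood at 54.4 CPM, and its gap to the next library made up 0.715 of the group's range. For Mcm10 it stood at 55.6 CPM with a gap of 0.758 of the range. For Chaf1a it stood at 133 CPM with a gap of 0.754. The groups of 4 to 7 libraries allow this check only roughly, and the members share their libraries, so the 3 cases are not independent.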

How the results depend on the processing

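With all 16 libraries no member was called, and the same held under RLE size factors, library totals, both other filters and limma-voom in all 3 comparisons. Counts of called members under the other settings are given as day 7 against control, day 14 against control and day 14 against day 7: DESeq2 gave 19, 0 and 2, fits of only the 2 groups compared 0, 0 and 4, the Y-linked covariate 2, 0 and 7, leaving out control libraries 1 and 2 gave 0, 2 and 6, and the 11 libraries with under 10 CPM of Y-linked transcripts (added after seeing the data) 1, 1 and 5. Leaving out 1 library in turn gave 0 to 25 members at day 7 against control, none at day 14 against control and 0 to 2 at day 14 against day 7. The 25 came without control replicate 5 and the 2 without control replicate 2.

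Over all genes, day 7 against control had 2 calls, and 1603 by DESeq2, 4 with only the 2 groups, 333 with the Y-linked covariate, 138 in the libraries low in Y-linked transcripts, and 0 without control libraries 1 and 2, with or without day 14 library 4 as well. Day 14 against control had 577 (246 higher, 331 lower), and 381 without the filter, 1551 by DESeq2, 1003 by limma-voom (538 higher, 465 lower), 4 with only the 2 groups and 942 without control libraries 1 and 2. RLE turned the split to 289 higher and 250 lower, and library totals to 699 and 100. Day 14 against day 7 had 178 (76 higher, 102 lower), and 707 by DESeq2, 712 with only the 2 groups, 838 without control libraries 1 and 2, 966 with the Y-linked covariate and 556 in the libraries low in Y-linked transcripts. RLE gave 87 higher and 72 lower, and library totals 150 and 41. Library totals also raised the median of all genes from 0.12 to 0.32 against control and from 0.12 to 0.29 against day 7, and that of the members from -0.40 to -0.23 and from 0.47 to 0.61. Leaving out 1 library gave 0 to 1455, 65 to 1458 and 25 to 531 calls in the 3 comparisons, with the highest counts without control replicate 5, day 14 replicate 2 and control replicate 2.

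The replicate numbers did not pair the libraries: correlations of deviations over 13 same-numbered pairs ran from -0.34 to 0.30, and 3 were over 0.1. The replicate block gave 35, 46 and 28 calls over all genes and none among the members. Under the block, Pcna at day 7 against control was 0.011, Pole2 at day 14 against control -0.0003 and Mcm4 at day 14 against day 7 -0.12.

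Single members changed sign as follows, as log2 changes. At day 7 against control without control libraries 1 and 2 (and then also without day 14 library 4), Cdc6 was 0.86 (0.85), Pole 0.057 (0.05), Pcna 0.13 (0.10), Rrm1 0.055 (0.041) and Tk1 0.15 (0.15). In the libraries low in Y-linked transcripts Cdc6 was 0.49 and Pcna 0.19. At day 14 against control without control libraries 1 and 2 (and then also without day 14 library 4), Cdc6 was 1.40 (1.18), Mcm10 1.20 (0.73), Pola1 0.50 (0.18), Lig1 0.59 (0.34), Rrm1 0.69 (0.44), Tyms 0.96 (0.72) and Chaf1a 1.00 (0.54). In the libraries low in Y-linked transcripts these 7 were 1.17, 0.72, 0.17, 0.33, 0.43, 0.71 and 0.53. With the Y-linked covariate, Cdc6 was 0.42, Mcm10 0.25, Lig1 0.022, Tyms 0.34 and Chaf1a 0.22. By limma-voom Cdc6 was 0.19 and Tyms 0.10, and by library totals Tyms was 0.023. Between day 14 and day 7, Mcm4 was -0.022 by limma-voom, -0.023 without control libraries 1 and 2 and day 14 library 4 and -0.040 in the libraries low in Y-linked transcripts. With 1 library left out in turn, Cdc6 at day 7 against control ranged from -1.25 to 0.097. In the same runs at day 14 against control, Cdc6 ranged from -0.71 to 0.65, Mcm10 from -1.02 to 0.54, Pola1 from -0.74 to 0.039, Pola2 from -0.012 to 0.26, Pole from -0.31 to 0.55, Pole2 from -0.021 to 0.26, Lig1 from -0.63 to 0.12, Rrm1 from -0.79 to 0.13, Tyms from -0.36 to 0.49, Tk1 from -0.45 to 1.05 and Chaf1a from -1.07 to 0.41, each highest without control replicate 2. Between the tumour groups, Mcm4 ranged from -0.16 to 0.089 and Cdt1 from -0.0074 to 0.14. None of these values was called except Cdc6 at 1.40, and the cause was not tested.

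In the fit without control libraries 1 and 2, which left 3 controls beside 7 day 7 and 4 day 14 libraries, a log2 change of 1.34 with an SE of 0.42 (Chaf1a at day 14 against day 7) did not pass.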
